A study of Mus musculus with 6 samples.

Results

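The 136 genes described here are the protein-coding mouse genes on chromosomes 1 to 19 and X whose symbol is Zfp followed by a number from 700 to 999, with or without a final letter. They were taken by symbol alone from the RefSeq table of build mm10, which holds 21627 protein-coding genes on these chromosomes, and 258 other genes carry a numbered Zfp symbol. The assay was ATAC-seq, which marks open chromatin by letting the Tn5 transposase insert adapters into it, and the cells were hematopoietic stem cells. About 20000 cells per library were sorted as Lin-Sca-1+c-Kit+CD48-CD150+ from C57BL/6 mice aged 12 weeks (3 months). The 3 libraries labelled Dek_fl came from Dekfl/fl mice, in which both alleles of Dek, a gene of a chromatin-bound nuclear protein, are floxed. The 3 labelled Dek_cKO came from Dekfl/fl mice that also carried Tie2-Cre, which expresses Cre recombinase in blood and endothelial cells under regulatory sequence of Tek, so floxed Dek is common to both groups and Cre is in 1 of them. It is not stated in the labels that libraries of a group are from separate animals, and the design text speaks of duplicates where the labels give 3. Any p-value therefore is relative to the variation among these 6 libraries, part of which can be technical.

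Zfp symbols name proteins with zinc fingers, small loops held by a zinc ion that mostly read DNA. Many of the genes lie in arrays that grew by tandem duplication, and many of the proteins start with a KRAB domain, which recruits Trim28 and, through it, the histone methyltransferase Setdb1 to silence retrotransposons and other targets. Zfp809, which silences murine leukemia virus DNA, and Zfp932, a repressor of endogenous retroviruses, are among the better known members. Not every gene of the number range is of this kind: Zfp703 is the mouse homolog of a human breast cancer gene, Zfp746 (PARIS) is a substrate of Parkin, and Zfp750 drives differentiation of the epidermis.

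Promoters that are nearly identical differed in whether a peak was called, and the sequences of 4 close relatives on chromosome 2 are shown for that reason. They are the RefSeq promoters of build GRCm38.p6, from 250 bases before to 50 bases after the start, printed 5′ to 3′ on the gene's strand, with CCAAT or its reverse complement ATTGG in capitals. The positions are Zfp967 at chr2:176520754-176521053 on the plus strand, Zfp970 at chr2:177464492-177464791 on the plus strand, Zfp965 at chr2:175469775-175470074 on the plus strand and Zfp971 at chr2:178023034-178023333 on the plus strand. Zfp967 and Zfp970 are identical at 293 aligned bases, and Zfp965 and Zfp971 at 291. Zfp967 and Zfp965 had a peak in 0 libraries, and Zfp970 and Zfp971 in all 6.
Zfp967: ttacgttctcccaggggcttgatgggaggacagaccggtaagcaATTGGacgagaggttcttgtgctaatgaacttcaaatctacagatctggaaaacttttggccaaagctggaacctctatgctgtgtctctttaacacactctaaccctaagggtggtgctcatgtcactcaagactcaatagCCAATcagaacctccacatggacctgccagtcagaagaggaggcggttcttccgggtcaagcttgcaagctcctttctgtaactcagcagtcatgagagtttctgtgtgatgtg
Zfp970: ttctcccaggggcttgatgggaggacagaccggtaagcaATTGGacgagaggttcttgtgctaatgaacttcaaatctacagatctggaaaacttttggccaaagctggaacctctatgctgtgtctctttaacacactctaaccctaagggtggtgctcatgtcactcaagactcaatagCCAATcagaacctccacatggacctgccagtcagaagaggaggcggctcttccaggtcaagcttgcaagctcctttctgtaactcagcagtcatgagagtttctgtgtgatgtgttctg
Zfp965: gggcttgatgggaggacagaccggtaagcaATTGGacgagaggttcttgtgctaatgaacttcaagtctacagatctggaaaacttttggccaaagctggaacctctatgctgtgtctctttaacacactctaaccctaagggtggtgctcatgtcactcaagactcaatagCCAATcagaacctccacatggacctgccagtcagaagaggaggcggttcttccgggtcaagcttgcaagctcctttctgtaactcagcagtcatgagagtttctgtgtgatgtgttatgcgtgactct
Zfp971: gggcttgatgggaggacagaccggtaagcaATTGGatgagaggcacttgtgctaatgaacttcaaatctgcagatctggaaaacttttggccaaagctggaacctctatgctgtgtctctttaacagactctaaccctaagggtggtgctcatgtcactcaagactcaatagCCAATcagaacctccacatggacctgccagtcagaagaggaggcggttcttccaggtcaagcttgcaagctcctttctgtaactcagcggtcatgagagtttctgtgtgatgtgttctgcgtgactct

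A further 4 promoters show the strongest and the weakest members. Zfp729a, chr13:67637732-67638031 on the minus strand, had the highest mean rank of all members, and its neighbour Zfp738, chr13:67683463-67683762 on the minus strand, shares 247 aligned bases with it. Zfp963, chr8:69749913-69750212 on the minus strand, was the third in rank, and its closest other promoter, that of Zfp869, shares only 61 bases. Zfp710, chr7:80024564-80024863 on the plus strand, was among the 3 lowest of the members with a peak in every library.
Zfp729a: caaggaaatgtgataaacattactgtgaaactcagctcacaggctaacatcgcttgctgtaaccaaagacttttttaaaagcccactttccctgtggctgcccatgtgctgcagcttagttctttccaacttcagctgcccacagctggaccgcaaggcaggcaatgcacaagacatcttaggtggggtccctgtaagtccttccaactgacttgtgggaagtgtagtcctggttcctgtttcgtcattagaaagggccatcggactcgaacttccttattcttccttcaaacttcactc
Zfp738: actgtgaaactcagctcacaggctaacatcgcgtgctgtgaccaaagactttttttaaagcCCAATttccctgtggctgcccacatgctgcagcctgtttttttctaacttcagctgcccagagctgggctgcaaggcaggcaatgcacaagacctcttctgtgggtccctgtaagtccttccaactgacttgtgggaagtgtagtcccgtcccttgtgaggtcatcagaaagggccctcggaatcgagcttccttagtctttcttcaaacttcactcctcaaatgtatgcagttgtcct
Zfp963: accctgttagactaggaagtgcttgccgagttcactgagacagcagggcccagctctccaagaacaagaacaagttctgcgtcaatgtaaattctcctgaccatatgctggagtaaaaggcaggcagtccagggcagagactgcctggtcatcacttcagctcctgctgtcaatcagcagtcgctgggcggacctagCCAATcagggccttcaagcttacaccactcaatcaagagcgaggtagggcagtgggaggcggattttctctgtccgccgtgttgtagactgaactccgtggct
Zfp710: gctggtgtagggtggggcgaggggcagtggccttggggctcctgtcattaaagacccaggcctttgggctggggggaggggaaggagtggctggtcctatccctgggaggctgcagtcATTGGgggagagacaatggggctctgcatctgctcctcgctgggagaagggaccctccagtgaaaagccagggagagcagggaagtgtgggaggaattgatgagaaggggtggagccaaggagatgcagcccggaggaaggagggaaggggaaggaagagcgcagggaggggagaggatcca

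The peak lists had lengths of 52451, 71555 and 23813 peaks for Dek_fl, replicates 1 to 3 in order, against 70756, 73173 and 27170 for Dek_cKO. Replicate 3 of both groups had the shortest lists and a higher lowest −log10 p, 5.07 and 5.02 against 2.87 to 3.13, so replicate number also marks how the lists were made. Read depth is not known from the lists, and a gene without a peak is not shown to be closed. Peaks at the ends of Dek were called in all 6 libraries, so they do not check the deletion, whose position the labels do not give. Peaks at Tek had −log10 p of 260, 576 and 56.6 in Dek_fl and 32.9, 20.5 and 8.59 in Dek_cKO, so the largest values were in the group that lacks the Tek-driven transgene by its label, and directions below are between the libraries as labelled. Of 12 stem cell marker genes, 3 to 12 had a peak in the Dek_fl libraries and 6 to 11 in the Dek_cKO libraries. Of 6 erythroid markers, 3 had a peak in all 6 libraries, and Gata1, Hbb-bs and Hba-a1 had 0 calls. B cell markers were called at 0 to 5 of 5 genes in Dek_fl and 1 to 5 of 5 in Dek_cKO. T cell markers were called at 1 to 2 of 5 and 2 to 3 of 5, and myeloid ones at 1 to 4 of 7 and 3 to 4 of 7. Megakaryocyte markers were called at 2 to 4 of 4 in both groups, and endothelial ones at 2 to 3 and 1 to 3 of 4. Genes used outside blood were called at 0 to 2 of 5 in both groups, so a called marker does not identify a cell type. The part of other cells in the results was not tested.

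Most of the Zfp700 to Zfp999 genes had an open gene end in these stem cells. A peak within 1 kb of either annotated end was called for 93, 100 and 88 of 136 members in the Dek_fl libraries (replicates 1, 2 and 3, the order used throughout), and for 100, 103 and 89 in Dek_cKO. In percent these were 68.4, 73.5 and 64.7 in Dek_fl, against a background of 63.6, 67.7 and 51.4 over all protein-coding genes. In Dek_cKO they were 73.5, 75.7 and 65.4, against 67.4, 67.6 and 52.0. The groups overlapped, and in both of them replicate 3 had the fewest members called.

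The calls were nearly all or none. In all 6 libraries 82 members had a peak, which is 60.3% against 48.8% of all protein-coding genes and 71.7% of the other numbered Zfp genes (185 of 258). In 0 libraries 33 members had one, 24.3% against 30.3% of all genes and 10.9% of the other numbered Zfp genes. The remaining 21, or 15.4%, were called in 1 to 5 libraries, against 21.0% of all genes. Uncalled genes were thus more frequent in this number range than among the other numbered Zfp genes, a comparison given here as counts with no test.

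The peaks lay at gene starts. For the 119 members with a promoter in the RefSeq table, which gives their strand, 66.4% to 76.5% per library had a peak within 1 kb of the start end, and 0.84% to 3.36% within 1 kb of the other end. Over the 87 to 97 members per library with a peak within 1 kb of the RefSeq start, and so limited to that distance, the summit of the highest peak lay a median of -22 to 56 bp from the RefSeq start, and 84.2% to 93.1% of the summits were within 250 bp of it. The library medians were -22, 0 and 56 bp in Dek_fl and -17, -7 and 54 bp in Dek_cKO, so the downstream offsets were those of replicate 3 in each group.

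Genomic arrays differed widely in how many of their members were called. Runs of at least 4 members with gaps of at most 500 kb held 70 of the 136 genes in 9 arrays. The array on chromosome 17 from 21565816 to 22867309 had a peak at 13 of 13 members in all 6 libraries, from Zfp948 to Zfp945, and the array on chromosome 8 from 69209018 to 69774911 at 6 of 6, Zfp930, Zfp868, Zfp964, Zfp869, Zfp963 and Zfp866. Zfp771, Zfp768, Zfp747 and Zfp764 on chromosome 7, from 127242996 to 127406835, were also all called in every library. At the other extreme stood chromosome 4 from 145510759 to 147849126.

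On chromosome 4 only Zfp982 and Zfp933 of 14 members were called in all 6 libraries, Zfp978 in 5, and 11 in 0 (Zfp979, Zfp980, Zfp981, Zfp984, Zfp985, Zfp987, Zfp988, Zfp990, Zfp991, Zfp992 and Zfp993). Of these 11, Zfp984 had a peak over its RefSeq promoter in all 6 libraries. In mouse embryonic stem cells, deletion of KRAB zinc finger arrays on chromosomes 2 and 4 is known to release retrotransposons. The array on chromosome 13 from 67038594 to 67683512 had 7 of 10 members in all 6 libraries, Zfp712, Zfp953, Zfp874a, Zfp748, Zfp729b, Zfp729a and Zfp738, and 3 in 0, Zfp708, Zfp759 and Zfp874b, each of which had a peak over a RefSeq promoter away from its annotated ends in all 6 libraries. The array on chromosome 7 from 42579397 to 43618279 had 4 of 7 in all 6, and that on chromosome 17 from 32765496 to 33307239 had 4 of 8. The small arrays on chromosomes 2 and 6 had 3 of 4 each. Of the 66 members outside arrays, 36 (54.5%) were called in all 6 libraries and 15 (22.7%) in 0, against 65.7% and 25.7% within arrays. The 15 include Zfp965, Zfp966, Zfp967, Zfp968 and Zfp973 of chromosome 2, close relatives of Zfp970 and Zfp971. The array rule left these outside the chromosome 2 array, so its 3 of 4 and the 22.7% and 25.7% depend on that rule.

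**Figure D1:**
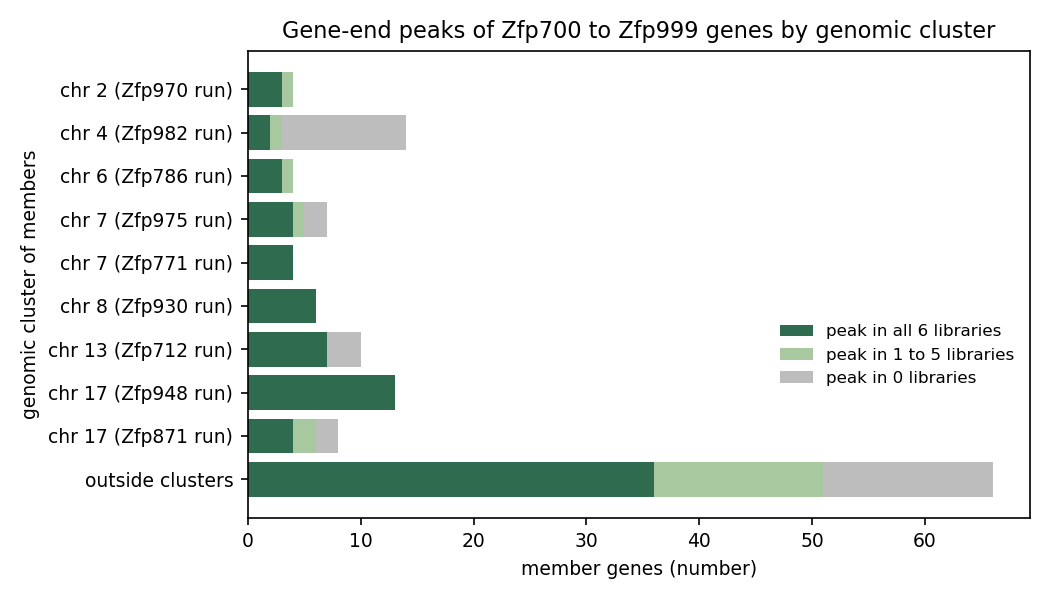
Number of members (x axis) of each genomic array of at least 4 members and outside arrays (y axis, named by chromosome and the first member called in all 6 libraries), split by whether a gene-end peak was called in all 6, in 1 to 5 or in 0 libraries. The chromosome 17 array that starts at Zfp948 is called at 13 of 13 members, and 11 of 14 on chromosome 4 are called in 0 libraries.

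Uncalled members tended to have promoters with near copies elsewhere. Of 119 promoters, 25 shared 270 to 300 aligned identical bases with another promoter of the table, and 14 of these members (56.0%) were called in 0 libraries and 9 (36.0%) in all 6. Of the 14, 13 had no peak over a RefSeq promoter either, and Zfp984 had one in all 6 libraries. Of the 27 promoters that shared 1 to 199 bases with their closest relative, 2 (7.41%) were at 0 and 23 (85.2%) at 6. Of the 41 with no relative found by the search, 6 (14.6%) were at 0 and 25 (61.0%) at 6. The median CpG count was 6 in the group of 270 to 300 bases, against 11 and 14 in these 2 groups. Closeness of copies and CpG count were not separated. Copies of one another are counted as separate members here, and the shares were not computed for all genes. All 7 members that shared 295 or more bases were uncalled, a band set after their values were seen: Zfp781, Zfp955a, Zfp955b, Zfp966, Zfp967, Zfp968 and Zfp973. The 7 are few independent sequences, since Zfp966, Zfp967, Zfp968 and Zfp973 share 273 to 300 aligned bases with one another. Zfp966 and Zfp967 are identical over 300 of 300 bases, as are Zfp955a and Zfp955b, and reads from such copies cannot be told apart over these bases. Whether the authors kept reads that align to several places is not stated in the sources used here, and its part in the missing peaks was not tested.

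The chromosome 2 relatives printed above show how close called and uncalled promoters can be. Zfp970 lay at percentile 92.9, 85.8 and 97.1 of fold in Dek_fl and 95.6, 92.1 and 97.9 in Dek_cKO, where 100 is the highest peak of a library's own list. Zfp971 was lower, at 66.1, 62.2 and 59.8 in Dek_fl and 48.1, 61.9 and 52.3 in Dek_cKO. Zfp931, their neighbour, lay at 99.2, 99.6 and 97.1 in Dek_fl and 99.9, 99.9 and 80.7 in Dek_cKO. Zfp965, Zfp966, Zfp967, Zfp968 and Zfp973, on the same chromosome, had 0 calls in both groups. Each of the 4 printed promoters holds both ATTGG and CCAAT. The letters CCGGAAG, on either strand, were in the promoters of all 5 uncalled relatives and in neither Zfp970 nor Zfp971. They were also in the promoter of Zfp972, a more distant relative in the same array (226 aligned identical bases with Zfp970), which was called in 5 libraries.

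**Figure D2:**
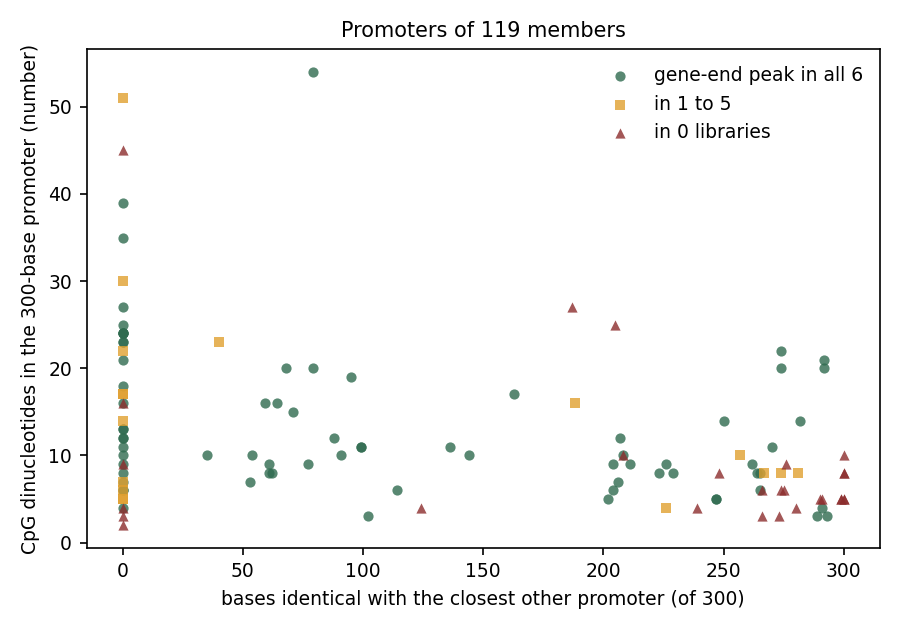
CpG dinucleotides in the 300-base RefSeq promoter (y axis) against the bases identical with the closest other promoter, 0 where none was found (x axis), for 119 members, with colour and marker for members called in all 6, in 1 to 5 or in 0 libraries. Uncalled members crowd at the right, where 14 of the 25 promoters sharing 270 or more bases are, and 7 of 7 sharing 295 or more. Copies of one another are separate points.

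Called members had fewer CpG dinucleotides in their promoters than called genes as a whole. The median was 9 CpG per 300 bases over the 119 members, 16 over the other numbered Zfp genes and 14 over all protein-coding genes in the table. Members called in all 6 libraries had a median of 11 and those called in 0 a median of 5.5, where all genes had 21 and 2. Among members with at most 4 CpG, 5 of 14 were called in all 6 libraries and 8 in 0. Zfp804a, whose human homolog has been linked to schizophrenia, had 0 gene-end calls and 45 CpG in its RefSeq promoter, whose start is 3529 bp from the annotated end. No peak overlapped that promoter, and summits lay at -585, -597 and -930 bp from its start in Dek_fl 1, Dek_cKO 1 and Dek_cKO 2.

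Of 7 motifs searched on both strands of the promoters, CCAAT stood highest above the share of all promoters. It was in 64.7% of member promoters, 41.0% of the other numbered Zfp promoters and 39.6% of all, and in 63.5% of members called in all 6 libraries and 71.4% of those called in 0. TATAAA was in 2.52% against 13.4% of all. GGGCGG was in 41.2% against 46.9%, and CCGGAAG in 16.0% against 12.1%. CCGGAAG was in 9.46% of members called in all 6 and 32.1% of those called in 0, whereas over all genes these shares were 19.9% and 3.43%. The 9 uncalled members with it are few independent sequences: 5 are the chromosome 2 relatives, Zfp936 and Zfp977 share 274 aligned bases, and Zfp759 and Zfp787 had promoter peaks in all 6 libraries. The palindromic NRF1 motif, AAGATGGCG and TGACGTCA were in 0.84%, 0.84% and 2.52% of member promoters and 1.35%, 1.92% and 2.36% of all. The motifs were searched separately, so matches of different motifs may overlap, and a match is a description of letters, not a bound site.

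A missing gene-end call did not always mean a missing promoter peak, because annotated gene ends and RefSeq starts can differ. Of the 28 uncalled members in the promoter table, 21 had no peak over any of their promoters in any library. Zfp708, which is known to bind the RMER19B repeat, and Zfp759, Zfp787, Zfp790, Zfp874b and Zfp984 had a promoter peak in all 6 libraries, and Zfp791 in 4. Zfp735, Zfp750, Zfp781 and Zfp804a, the other members of the first 10 uncalled by number, are described only as uncalled at their ends. Zfp750 had a peak 1127 bp from an end in Dek_fl 2 and Dek_cKO 2, just outside the 1 kb limit, as did Zfp879 at 1014 and 1040 bp in the replicate 3 libraries. Just inside it were Zfp821 in Dek_cKO 2, at 990 bp, and Zfp976 in Dek_fl 2 and Dek_cKO 2, at 964 bp.

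Where a member was called, its peak ranked high by fold. Fold is the authors' enrichment of a peak's summit over the local background, and it was compared as a percentile within each list. Over the 82 members called in all 6 libraries the median percentile was 95.3, 96.5 and 81.5 in Dek_fl and 96.4, 97.1 and 85.0 in Dek_cKO. Over the 10548 genes called in all 6 it was 85.8, 82.8 and 71.6 in Dek_fl and 83.9, 85.4 and 72.6 in Dek_cKO. Members were above all genes in each of the 6 libraries. The other numbered Zfp genes called in all 6 lay between the 2 sets in every library. Their medians were 89.9, 91.3 and 78.3 in Dek_fl and 91.1, 91.7 and 79.6 in Dek_cKO. A mean percentile of at least 90 was reached by 49 of 82 members (59.8%), against 23.7% of all genes and 37.8% of the other numbered Zfp genes.

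The percentile of −log10 p showed no such gap. Its median was 89.6, 93.2 and 74.7 for members in Dek_fl, against 89.7, 92.6 and 74.9 for all genes, and 92.2, 92.3 and 76.6 against 92.6, 92.7 and 76.2 in Dek_cKO. Member peaks were also narrower, with a median width of 1080, 1430 and 684 bp in Dek_fl against 1250, 1510 and 745 bp for all genes. In Dek_cKO the widths were 1390, 1230 and 629 bp against 1480, 1360 and 716 bp. In all 6 libraries members thus stood above all genes in fold and below them in width, with medians of −log10 p close to those of all genes. This is not particular to the number range. The other numbered Zfp genes were also above all genes in fold, and narrower. Their widths were 1190, 1430 and 700 bp in Dek_fl and 1410, 1300 and 678 bp in Dek_cKO.

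**Figure D3:**
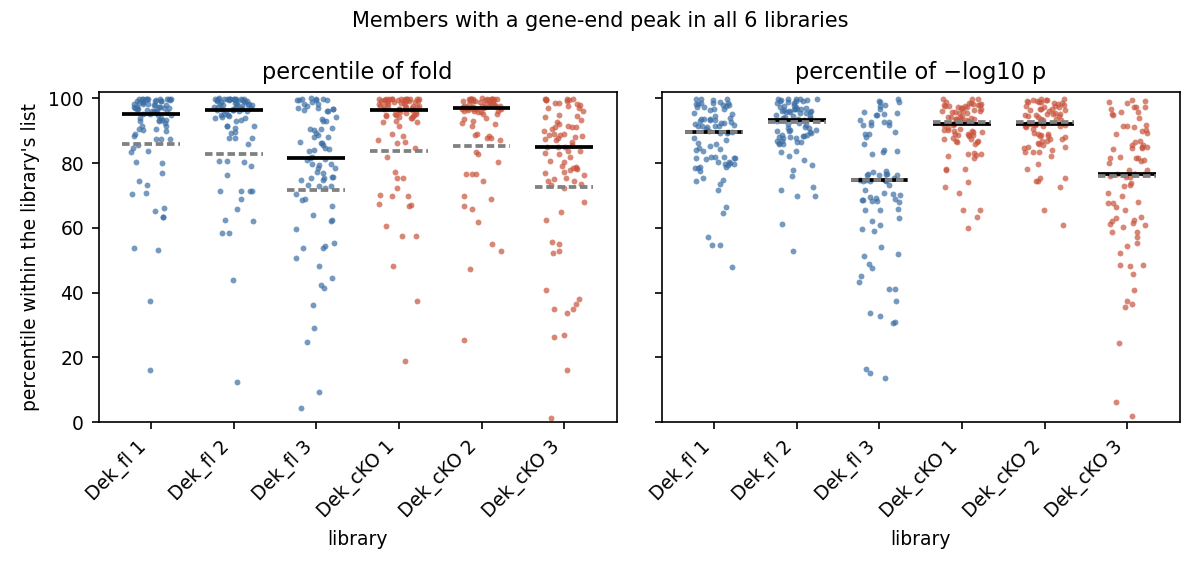
Percentile of fold (left) and of −log10 p (right) within each library's list (y axis) for the 82 members called in all 6 libraries. Points, by library on the x axis, are each member's gene-end peak of highest fold (left) or highest −log10 p (right). The members' median is a black line, and that of the 10548 protein-coding genes called in all 6 is a dashed grey line. The members' median lies above the grey line in all 6 libraries for fold, and on or near it for −log10 p.

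Zfp729a on chromosome 13 (67612760 to 67637803) had the strongest peak of the members. Its percentile of fold was 99.9 in each Dek_fl library and 99.9, 99.9 and 99.7 in Dek_cKO, at folds of 14.0, 12.1 and 19.9 in Dek_fl and 13.5, 15.1 and 19.0 in Dek_cKO. Zfp748, in the same array, had folds of 10.8, 10.4 and 21.2 in Dek_fl and 11.8, 12.5 and 20.3 in Dek_cKO. The groups overlapped for both genes. Zfp963 on chromosome 8 had folds of 9.86, 10.6 and 20.6 in Dek_fl and 11.9, 12.7 and 20.8 in Dek_cKO. Zfp873 on chromosome 10 followed with 10.7, 11.4 and 17.8 in Dek_fl and 11.4, 13.0 and 18.7 in Dek_cKO. Zfp954 on chromosome 7 had 9.67, 10.5 and 17.4 in Dek_fl and 10.4, 12.5 and 18.3 in Dek_cKO. All 5 stayed above percentile 97 in every library, and their folds were highest in replicate 3, as those of the whole lists were.

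Zfp809 and Zfp932, the repressors of retroviral DNA, were both well called. Zfp809 lay at percentile 97.1, 95.3 and 99.0 of fold in Dek_fl and 94.3, 96.5 and 99.3 in Dek_cKO. Zfp932 lay at 96.7, 99.9 and 74.8 in Dek_fl and 99.9, 99.9 and 83.8 in Dek_cKO, lowest in replicate 3 of each group. Zfp706, a gene known from embryonic stem cell self-renewal, lay at 85.7, 80.7 and 84.7 in Dek_fl and 84.6, 88.3 and 87.9 in Dek_cKO. These 3 were named for their known roles.

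The weakest members called in every library were Zfp839, Zfp710 and Zfp703. Zfp839 lay at percentile 16.2, 12.4 and 4.5 of fold in Dek_fl and 18.9, 25.3 and 1.29 in Dek_cKO. The values of Zfp710 come from different sites: its highest peak lay at its start (80024204 to 80025843) in Dek_fl 1, Dek_fl 3 and Dek_cKO 3, at percentiles 37.5, 9.28 and 26.4, and at its other end (80090798 to 80092669) in Dek_fl 2, Dek_cKO 1 and Dek_cKO 2, at 58.3, 57.5 and 55.2. Among the 82 members called in all 6 libraries, Zfp710 and Zfp771 were the 2 whose highest peaks were not at 1 site. Zfp703 lay at 53.2, 43.8 and 53.9 in Dek_fl and 37.4, 52.8 and 33.8 in Dek_cKO. The groups overlapped for Zfp839 and Zfp703, and the percentiles of Zfp710 give no like-for-like comparison. Its start region (80024166 to 80026332) was called in all 6 libraries. The rank scores there, explained below, were -1.28, -1.25 and -1.62 in Dek_fl and -1.53, -1.56 and -0.984 in Dek_cKO, and the groups overlapped. Zfp703 is also the lowest numbered member, Zfp697 just outside the range had a peak in 4 libraries, and Zfp996, the highest numbered, in 0.

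The share of members with a gene-end peak differed little between the groups. It averaged 68.9% ± 4.43 in Dek_fl and 71.6% ± 5.42 in Dek_cKO (SD, n = 3 each), a difference of 2.7 points, against 1.43 over all protein-coding genes. That is less than the SD within either group. Between same-numbered libraries the difference was 5.15, 2.21 and 0.735 points for replicates 1, 2 and 3, positive in all 3 pairs, with an SD over pairs of 2.25. Within replicates 1 and 2 this pairing rests on the numbering alone. Different numbers correlated at 0.307 and 0.573 there, and same numbers at 0.272 and 0.522. Dek_fl 2 and Dek_cKO 1 had equal counts, 100 members each, so the sign in every pair depends on the numbering. Within replicates 1 and 2 the difference was 3.68 points and within replicate 3 it was 0.735. With every list cut to the 23809 peaks of highest −log10 p it was -1.23 points, so its sign depended on list length.

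Single members followed the same pattern. In more Dek_cKO than Dek_fl libraries a peak was called for 13 members, 9.56% against 7.11% of all genes: Zfp799, Zfp811, Zfp821, Zfp831, Zfp853, Zfp872, Zfp937, Zfp941, Zfp951, Zfp960, Zfp974, Zfp976 and Zfp978. In more Dek_fl libraries one was called for Zfp800, Zfp804b and Zfp972, 2.21% against 3.36%. With lists of equal length these counts were 5 and 9. Of the 13, Zfp821 and Zfp976 had a peak over a RefSeq promoter in all 6 libraries. Over the libraries their nearest peaks lay 990 to 1514 bp and 845 to 1341 bp from a gene end. Their difference in calls thus came from the 1 kb limit. No library-complete switch was seen: 0 members were called in 3 Dek_cKO and 0 Dek_fl libraries (background 0.0139%), and 0 in 3 Dek_fl and 0 Dek_cKO libraries (background 0.0%).

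Zfp831 was the one member called in at least 2 Dek_cKO and 0 Dek_fl libraries, a share of 0.735% against 0.421% of all genes, and 0 members were called in at least 2 Dek_fl and 0 Dek_cKO libraries (background 0.0694%). Its peak had a fold of 2.5 in Dek_cKO 1 and 4.11 in Dek_cKO 2, at −log10 p of 3.92 and 9.08 and percentiles 4.64 and 31.2 of fold, and it was not called in Dek_cKO 3 or in Dek_fl. Zfp800 had folds of 4.8, 5.66 and 4.88 in Dek_fl and 5.82 and 6.92 in Dek_cKO 1 and 2, with no call in Dek_cKO 3. A peak lay over at least 1 of its 2 RefSeq promoters in all 6 libraries, so its difference in calls concerns the annotated ends alone. Zfp972 had folds of 2.98, 2.81 and 9.47 in Dek_fl and 3.52 and 3.93 in Dek_cKO 1 and 2, again with no call in Dek_cKO 3. Each of these differences rests on calls of weak peaks or on 1 library.

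Ranks of shared peaks gave no member past the adjusted test, and few members whose libraries separated by group. The median difference in mean percentile, Dek_cKO minus Dek_fl, over the 82 members was 0.0405 for fold, against 0.3 over all genes, and 1.08 for −log10 p, against 1.07. Neither sign held with lists of equal length, which gave -1.14 and -1.28. Leaving out 1 library gave -3.34 (without Dek_fl replicate 3) to 3.69 (without Dek_cKO replicate 3) for fold. For −log10 p the range was -3.28 to 6.98, without the same libraries. The members' median percentile of fold was 82.2 in replicate 3 against 96.1 in replicates 1 and 2. Leaving out 1 library therefore unbalances the groups, and those values do not show whether a sign holds. Over the same 82 members the fold value was 0.0617 within replicates 1 and 2 and 0.0496 within replicate 3. Percentiles of fold did not overlap for 1 member, Zfp719, which was lower in Dek_cKO (1.22% against 0.958% of all genes), and for 0 members in the other direction (background 1.59%). Zfp719 lay at 95.8, 94.4 and 96.1 in Dek_fl and 94.0, 93.8 and 92.7 in Dek_cKO, a mean difference of -1.96 percentile points. For −log10 p 0 members were apart in each direction, against 1.46% of all genes higher and 0.237% lower, and for both percentiles together 0 were, against 0.152% and 0.0664%. In all 3 same-numbered pairs the percentile of fold was higher in Dek_cKO at 16 members (19.5% against 11.9% of all genes) and lower at 10 (12.2% against 7.99%). For replicates 1 and 2 these pairs rest on the numbering alone.

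The same comparison was made with limma on rank scores, the normal scores of the ranks of fold over the 19683 regions called in all 6 libraries. Of the 84 regions at an end of 85 members, 0 were higher and 0 lower in Dek_cKO at an adjusted p under 0.05, and 0 and 0 at an unadjusted p under 0.05. Over all 19683 regions the calls were also 0 and 0 (0.0% each), with 68 (0.345%) and 19 (0.0965%) at an unadjusted p under 0.05. The median difference over member regions was -0.0599, and 35 of 84 were positive. With replicate number as a block the members had 0 calls, 3 regions higher at an unadjusted p under 0.05, and a smallest adjusted p of 0.813, at Zfp947. Over all regions that fit called 1 higher (0.00508%) and 0 lower, with 2.97% and 1.47% at an unadjusted p under 0.05. The fit without the block counts shifts between replicates as residual variation. At Zfp947, for example, its SE was 0.514 against 0.273 with the block. With so few unadjusted calls over all regions it was a cautious test, and 0 calls do not show that ranks were unchanged.

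The regions with the smallest p on the higher side had no call. Zfp939 on chromosome 7 had rank scores of 0.289, 0.988 and 0.457 in Dek_fl and 1.27, 1.4 and 1.13 in Dek_cKO. Its difference was 0.691 (SE 0.312, adjusted p = 1.0 by limma), and it was the one member region whose scores were higher in every Dek_cKO library (1.19% against 2.1% of all regions). Zfp947 on chromosome 17 had scores of 0.721, 1.43 and -0.109 in Dek_fl and 1.49, 2.38 and 0.691 in Dek_cKO, a difference of 0.836 (SE 0.514). Its groups overlapped, since replicate 3 was lowest in both, and its score was higher in Dek_cKO in each of the 3 same-numbered pairs. Zfp938, Zfp952 and Zfp820 differed by 0.555, 0.48 and 0.627 with an adjusted p of 1.0 each, and the value for Zfp820 was 0.0302 without Dek_fl replicate 3.

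On the lower side the smallest p values were at Zfp821, Zfp948, Zfp788, Zfp746 and Zfp873, again at an adjusted p of 1.0 each by limma. Zfp788 had rank scores of 1.13, 0.498 and 1.5 in Dek_fl and 0.179, 0.471 and 0.959 in Dek_cKO, a difference of -0.504 (SE 0.367). Zfp746 had -0.17, -0.469 and -0.0862 in Dek_fl and -0.659, -0.465 and -0.738 in Dek_cKO, a difference of -0.379. Both overlapped between groups. Zfp948 and Zfp873 differed by -0.477 and -0.349. The region of Zfp821 differed by -0.475, but it is a merged region that reached within 1 kb of the gene in Dek_cKO 2 alone. Scores lower in every Dek_cKO library were found at regions of 4 members, Zfp729b, Zfp771, Zfp821 and Zfp873 (4.76% against 2.27% of all regions). For Zfp771 this was the region from 127253690 to 127255217, with a difference of -0.327. Its other region, from 127243522 to 127244908 over its RefSeq promoter, differed by 0.119, and its groups overlapped.

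**Figure D4:**
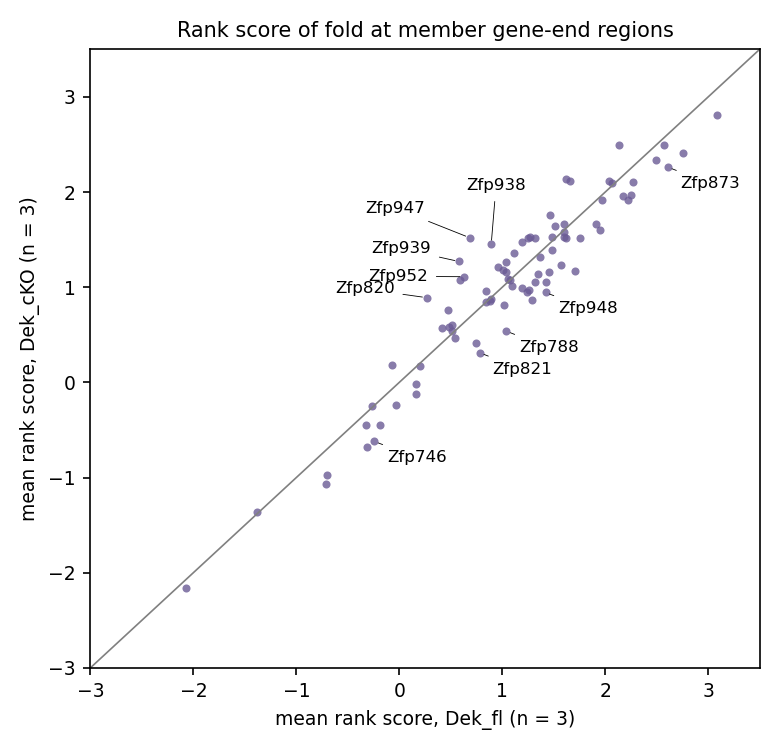
Mean rank score of fold in Dek_cKO (y axis, n = 3) against Dek_fl (x axis, n = 3) for the 84 gene-end regions of members, without units, with the line of equality and the 10 members of smallest p by name. The points follow the line, the differences run from -0.536 to 0.836, and 0 regions passed the adjusted test.

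Rank scores of members also moved with replicate number. Replicate 3 minus the mean of replicates 1 and 2, the rank score changed by a median of -0.25 over the 84 member regions (quartiles -1.18 and 0.447, lower in 51) and 0.011 over all shared regions (quartiles -0.54 and 0.554). Zfp982 had scores of 2.45 and 2.54 in Dek_fl 1 and 2 against 0.129 in Dek_fl 3, and 2.69 and 2.19 in Dek_cKO 1 and 2 against -1.36 in Dek_cKO 3. Zfp868 went the other way, with 1.84 and 1.48 against 3.18 in Dek_fl and 1.68 and 1.14 against 3.06 in Dek_cKO. In both genes the libraries of each group moved alike. These members were chosen after their values were seen, and the lists of replicate 3 were made differently, so sample and processing cannot be told apart.

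Calls also moved with replicate number at 4 members, Zfp711, Zfp777, Zfp827 and Zfp879, which had a peak in all 4 libraries of replicates 1 and 2 and in neither of replicate 3 (2.94% against 9.29% of all genes). Zfp711, whose human homolog is an X-linked intellectual disability gene, had folds of 4.64 and 5.68 in Dek_fl and 5.62 and 5.91 in Dek_cKO. Zfp879 had 7.71 and 9.37 in Dek_fl and 11.8 and 12.1 in Dek_cKO. The Dek_cKO 2 peak of Zfp879 lay at its far end and the other 3 at its start. A region at that far end (50826729 to 50828055) was called in all 6 libraries. The nearest replicate 3 peaks lay 1014 and 1040 bp from an end, so the missing calls of Zfp879 depend on the 1 kb limit. Zfp777 had folds of 4.0 and 3.74 in Dek_fl and 3.7 in Dek_cKO 2 at its start, and 11.2 in Dek_cKO 1 for a peak at its other end (48015674 to 48016817), so that value is from another region. Zfp808 was the reverse, with folds of 13.4 and 16.2 in replicate 3 of Dek_fl and Dek_cKO, 3.79 and 2.68 in replicate 2, and no call in replicate 1. No member was called in both replicate 3 libraries and in 0 of the others (background 0.0832%).

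**Figure D5:**
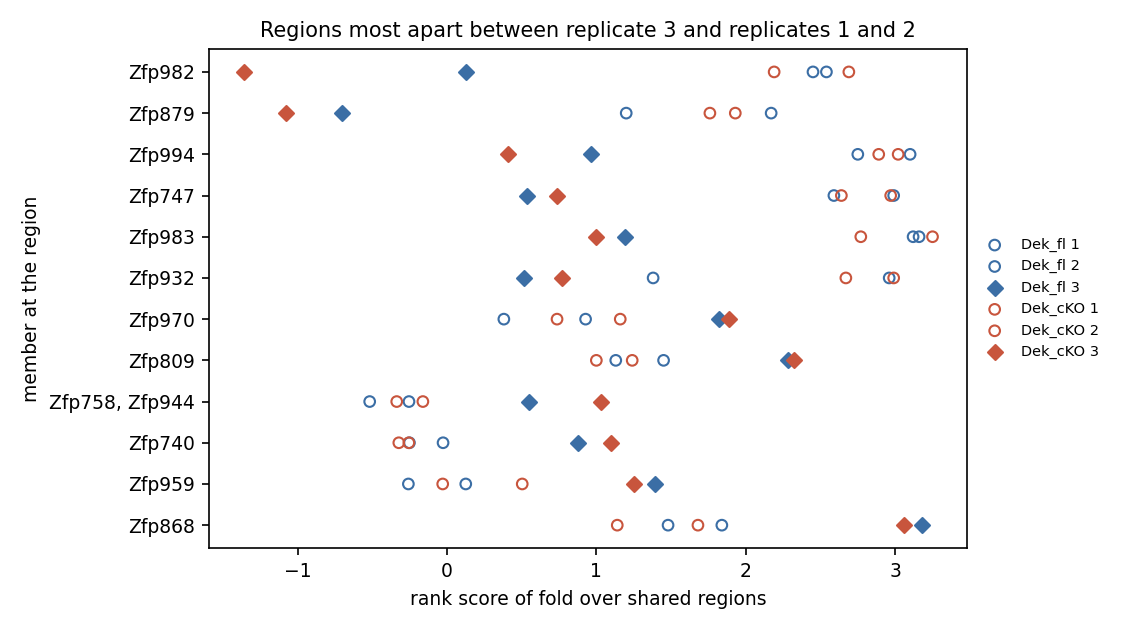
Rank scores of fold over shared regions (x axis, no units) in each library for the 12 member regions (y axis) at which replicate 3 lay furthest below (upper 6) or above (lower 6) the mean of replicates 1 and 2, with open circles for replicates 1 and 2, filled diamonds for replicate 3 and colour for genotype. Both diamonds stand on the same side in each region, from Zfp982 at a difference of -3.08 to Zfp868 at 1.59.

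Most genes that carry out KRAB repression were called. Of a list of 42, all matched by symbol, 33 (78.6%, against 48.8% of all protein-coding genes) were called at a gene end in every library, 4 in 1 to 5 and 5 (11.9% against 30.3%) in 0, among them Tasor, Tasor2, Dnmt1 and Dnmt3a. These calls are at annotated gene ends alone, so a peak at a promoter away from them would not be counted. Trim28, the corepressor that KRAB domains bind, lay at percentile 69.9, 60.0 and 61.6 of fold in Dek_fl and 58.3, 72.9 and 68.7 in Dek_cKO. Setdb1 lay at 99.6, 99.7 and 81.2 in Dek_fl and 98.5, 99.5 and 84.1 in Dek_cKO. The groups overlapped for both. Atrx, a chromatin remodeler that deposits histone H3.3 with Daxx, lay at 69.7, 73.0 and 32.9 in Dek_fl and 50.4, 73.6 and 45.2 in Dek_cKO. Daxx lay at 86.0, 85.9 and 85.3 in Dek_fl and 85.4, 85.9 and 86.8 in Dek_cKO. In the limma test 0 of the 34 list genes with a shared region rose and 0 fell at an adjusted or an unadjusted p under 0.05, with a median difference of -0.0527.

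Some members share their ends with another gene, and their peaks cannot be assigned to 1 of the 2. This held for 10 members, of which 9 were called in all 6 libraries, against 73 of the other 126 (57.9%). Zfp942 and Zfp943 share 1 region, as do Zfp944 and Zfp758, and Zfp786 and Zfp398 and Zfp830 and Cct6b lie end to end. The 57.9% without the 10 is above the 48.8% of all genes.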

How the data were processed

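Peak lists of ATAC-seq from 6 libraries, 3 Dek_fl and 3 Dek_cKO, were used as the authors deposited them, 1 list per library and not pooled. Per the submitters' processing notes the reads were handled with Bowtie2, Picard and MACS2 on build mm10, with versions, settings, read filters and any Tn5 shift not given in the sources used here. The deposited columns are a score, a fold (the ratio of summit to local background), a −log10 p-value and a −log10 q-value. The score is 10 times −log10 q in 100% of peaks of replicates 1 and 2 and 10 times −log10 p in 100% of replicate 3, within 1 unit. Depth is not known, so no interval is given for a call.

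Peaks on chromosomes 1 to 19 and X were assigned to a gene when they lay within 1 kb of either annotated end. The peak of highest fold gave the gene's percentile of fold within its list. The percentile of −log10 p was taken separately, from the gene's peak of highest −log10 p, which can be another peak. Peaks sharing at least 1 bp across libraries were merged. Ranks of fold over the 19683 merged regions called in all 6 libraries became normal scores, which were tested with limma 3.58.1 in R 4.3.3, with Benjamini-Hochberg adjustment over all of them and a threshold of 0.05. The code was tested on simulated data. Python 3.11.15 did the rest.

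Same-numbered libraries of the 2 groups deviated together (correlations 0.272, 0.522 and 0.74), each over 0.1, so replicate number was taken to pair them. Different numbers within replicates 1 and 2 correlated at 0.307 and 0.573, so the pairing in the data is mostly that of replicate 3 against the others.

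Promoters came from a RefSeq table of GRCm38.p6, which matched 119 of 136 members, and the closest other promoter was found with BLAST 2.17.0 at an E-value of 1e-05. Finger counts and KRAB letters in the proteins were planned and not run, because no protein table was used. The members and the lists were chosen with earlier results of these data known. Members named with values were the 5 highest and 3 lowest by mean percentile of fold, any called in at least 2 libraries of 1 group and none of the other, the 5 smallest limma p per direction, any with both percentiles apart between groups, and 10 uncalled members by number. Others were named for a known role or after their values were seen. The name of 1 gene on the KRAB list is not reported here. Alternatives were the distance, the start end alone, stricter and equal-length lists, single replicates or batches, the block, a batch term, the ranking column and the merging rule.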

Additional observations from a re-analysis of the deposited data

How the results depend on the processing

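The rank test gave 0 members in each direction under every alternative run, namely the replicate block, a term for replicate 3, ranking by −log10 p, stricter lists, stricter merging and leaving out each library. The replicate block changed no other call of a member. Lists of equal length turned the difference in share to -1.23 points, the counts of members called in more Dek_cKO and more Dek_fl libraries to 5 and 9, and the median differences to -1.14 (percentile of fold) and -1.28 (−log10 p). The count for more Dek_fl libraries was 9 at 0 bp and 5 at 2 kb. With peaks of −log10 q of at least 10, the median difference of fold was 0.535. Replicates 1 and 2 alone gave 0 members called in more Dek_fl libraries and 1 called in Dek_cKO only. Their median difference of fold was 0.387, over the 93 members called in all libraries of these replicates. Replicate 3 alone gave 4 called in Dek_cKO only, 3 in Dek_fl only, and so 4 in more Dek_cKO libraries. Shares of all protein-coding genes with such calls were not computed for these alternatives, so the counts have no background beside them. Leaving out each library in turn gave 0.613 to 5.76 points for the share, 0 to 1 members in Dek_cKO only, 10 to 18 and 1 to 8 in more Dek_cKO and more Dek_fl libraries, and medians of -3.34 to 3.69 (fold) and -3.28 to 6.98 (−log10 p). The highest share and medians were without Dek_cKO replicate 3, and the lowest medians without Dek_fl replicate 3. Without Dek_cKO replicate 1 the medians were -0.215 (fold) and -0.771, without Dek_cKO replicate 2 -0.416 and -0.959, without Dek_fl replicate 1 1.16 and 1.92, and without Dek_fl replicate 2 0.62 and 4.37. The share was 5.02 points without Dek_fl replicate 2, 1.72 without Dek_cKO replicate 1, and 0.613 without Dek_fl replicate 3 or Dek_cKO replicate 2. Members called in more Dek_fl libraries numbered 7 without Dek_fl replicate 3 or Dek_cKO replicate 1, 8 without Dek_cKO replicate 2 and 1 without Dek_cKO replicate 3. Leaving out 1 library also unbalances the groups by replicate number, and member percentiles were lower in replicate 3. The cause of these changes was not tested. Depth behind the lists is unknown, so a missing call sets no limit on accessibility.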
